A study of Mus musculus with 6 samples.

Results

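The let-7 family is among the most abundant groups of microRNAs (miRNAs) in differentiated tissues. Here, 9 of its loci were examined in the Achilles tendon of Dicer deficient mice: Mirlet7a-1, Mirlet7f-1, Mirlet7d, Mirlet7c-2, Mirlet7b, Mirlet7f-2, Mirlet7g, Mirlet7i and Mir98. They were chosen by name and position, as the let-7 loci that do not lie in a cluster with Mir99, Mir100 or Mir125 genes, and they are 9 of the 2262 features of the small RNA-seq count table. The other 3 let-7 loci (Mirlet7a-2, Mirlet7c-1 and Mirlet7e) lie in such clusters and are given for comparison. All mice were 4 weeks old. The Control mouse was Dicer f/f, with both floxed alleles and no Cre. The ScxHt mouse carried the ScxCre/+ knock-in with Dicer +/+, and the Dicer cKO mouse carried the ScxCre/+ knock-in with Dicer f/f. The study describes this knock-in as able to inactivate endogenous Scx, so both mice were also altered at Scx. In this model Cre is made from the Scx locus, so that excision is limited to cells that express Scx or descend from them, and the whole tendon also holds cells in which Dicer stays intact. Each genotype had 1 small RNA-seq and 1 RNA-seq library, so no spread between mice is known, no test was possible and no p-value is given. Intervals in brackets are exact 95% (Clopper-Pearson) intervals that cover counting error only, and sequenced reads are not independent molecules.

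A let-7 locus is transcribed as a long primary transcript from which Drosha with Dgcr8 cuts a hairpin, Xpo5 exports it from the nucleus, and Dicer cuts the mature miRNA from it. The mature miRNA guides an Argonaute protein to messenger RNAs with a match to its seed, bases 2 to 8, and lowers their stability and translation. let-7 is known for its rise during differentiation, for holding back growth genes such as Hmga2 and Igf2bp1, and for being blocked before maturation by Lin28a and Lin28b.

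The mature sequences show what the 9 loci share and how little they differ. They were taken from RefSeq (GRCm38.p6), in which all 9 loci and the 3 cluster loci were found, and each is 22 bases long. The seed is in capitals and is the same in all of them.
let-7a (Mirlet7a-1): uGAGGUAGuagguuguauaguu
let-7f (Mirlet7f-1 and Mirlet7f-2): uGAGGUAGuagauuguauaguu
let-7d (Mirlet7d): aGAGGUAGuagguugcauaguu
let-7c (Mirlet7c-2): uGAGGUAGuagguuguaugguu
let-7b (Mirlet7b): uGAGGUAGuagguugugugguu
miR-98 (Mir98): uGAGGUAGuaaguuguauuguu
let-7g (Mirlet7g): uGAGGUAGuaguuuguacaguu
let-7i (Mirlet7i): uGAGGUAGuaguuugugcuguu
let-7e (Mirlet7e, a cluster locus): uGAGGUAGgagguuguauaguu

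Counted from the 5′ end of let-7a, let-7f differs by G12A and let-7c by A19G. let-7b has A17G and A19G, let-7d has U1A and U16C, let-7g has G12U and U18C, and miR-98 has G11A and A19U. let-7i is the farthest, with G12U, A17G, U18C and A19U. Of the 36 pairs among the 9 mature sequences, 4 differ at 1 base and 10 at 2 bases. Mismatches allowed in mapping are not given in the sources used here, so a share of the reads of 1 sequence could have been counted at the locus of another. In RefSeq, 11 of 1674 mature sequences hold this seed, and the remaining pair are let-7k (Mir7k) with 27, 24 and 36 reads in the Control, ScxHt and Dicer cKO library and miR-1961 with 0, 2 and 2 reads.

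The loci lie on 5 chromosomes (GRCm38). Mirlet7a-1 (chr13:48538179-48538272), Mirlet7f-1 (chr13:48537829-48537917) and Mirlet7d (chr13:48536012-48536114) follow each other on the minus strand, in an exon of the long noncoding RNA 6720427I07Rik. Mirlet7c-2 (chr15:85706603-85706697) and Mirlet7b (chr15:85707319-85707403) lie on the plus strand in an exon of the noncoding RNA Lncppara. Mirlet7f-2 (chrX:151912346-151912428) and Mir98 (chrX:151913214-151913321) lie on the plus strand in an intron of Huwe1, a ubiquitin ligase gene. Mirlet7g (chr9:106178840-106178927) lies on the plus strand in an intron of Wdr82, a gene of a histone methyltransferase complex. Mirlet7i (chr10:122985640-122985724) lies on the minus strand within D630033A02Rik, in an exon of 1 of its 2 transcripts and an intron of the other.

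The small RNA-seq libraries held 10986541 counts for the Control, 8437993 for ScxHt and 8435829 for Dicer cKO mice, over 579 to 634 features with reads. The 9 muscle miRNAs of the Mir1, Mir133, Mir206, Mir208 and Mir499 genes held 6.34%, 4.38% and 11.9% of the counts in the same order, and 3 erythroid miRNAs 0.130%, 0.0924% and 0.129%. In RNA-seq of the same tendons, 7 tendon fibroblast markers held 8.80%, 7.18% and 4.96% of the counts, 7 skeletal muscle markers 5.21%, 2.92% and 8.94%, and 4 Schwann cell markers 651, 641 and 6465 reads. Col1a1 held most of the tendon sum (1261322, 925996 and 658168 reads) and Ttn most of the muscle sum (688745, 329060 and 1062032 reads). For ScxHt/Control, Col1a1 (0.703) and Scx (0.623) were lower, while Fmod, Mkx, Thbs4, Tnmd and Kera were at 1.08 to 1.57. Muscle markers were mixed too there, with Ttn at 0.458 and Myh4 at 4.70. For Dicer cKO/Control, the tendon markers ranged from 0.365 (Scx) to 0.948 (Tnmd). Scx is itself the knock-in locus of the ScxHt and Dicer cKO mice, so its ratios do not stand for tendon cells alone. The 5 erythroid markers had 3071, 3057 and 6890 reads and the 4 macrophage markers 2465, 4420 and 1831. No marker of these lists was at 0 in any RNA-seq library, so the labelled tissue showed its markers together with those of other cell types. Dicer1 itself had 1919, 2025 and 1621 RNA-seq reads, and its ratio to the Control was 0.877 (0.821 to 0.938) in the Dicer cKO and 1.01 (0.949 to 1.08) in the ScxHt library. This count covers the whole gene, reads outside the deleted stretch included. In such bulk samples, fewer cells of a type and less RNA per cell cannot be told apart, and the part of cell make-up in the let-7 values below was not tested.

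The 9 loci spanned from the highest counts of the small RNA-seq table to rank 111 (Mir98 in the Control library). Mirlet7c-2 had 883070 reads in the Control library, 712039 for ScxHt and 595718 for Dicer cKO, the 1st, 1st and 3rd highest count of all features. Mirlet7b, its neighbour on chromosome 15, had 532838, 483049 and 362472 reads, and ranked between 5th and 8th. Both loci had their lowest count in the Dicer cKO library, and Mirlet7b stayed below Mirlet7c-2 in all 3.

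On chromosome 13, Mirlet7a-1 had 355017, 315335 and 282571 reads and Mirlet7f-1 338324, 239071 and 221061 reads, in the order Control, ScxHt and Dicer cKO. The third hairpin of this transcript, Mirlet7d, had only 21838, 26151 and 20589 reads. Unlike its neighbours, Mirlet7d had its highest count in the ScxHt library.

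On chromosome X, Mirlet7f-2 had 352607, 249111 and 230141 reads. Mir98, which lies 785 bases downstream in the same intron, had 1828, 2096 and 1715 reads, the lowest of the 9 loci in every library. Mirlet7i had 136137, 123122 and 78175 reads, and Mirlet7g 14746, 14452 and 13289 reads. All 4 loci had their lowest raw count in the Dicer cKO library, but the Control library was deeper. As CPM, Mirlet7g (1342, 1713 and 1575) and Mir98 (166, 248 and 203) were lowest in the Control library. Mirlet7f-2 and Mirlet7i were lowest in the Dicer cKO library as CPM too.

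**Figure D1:**
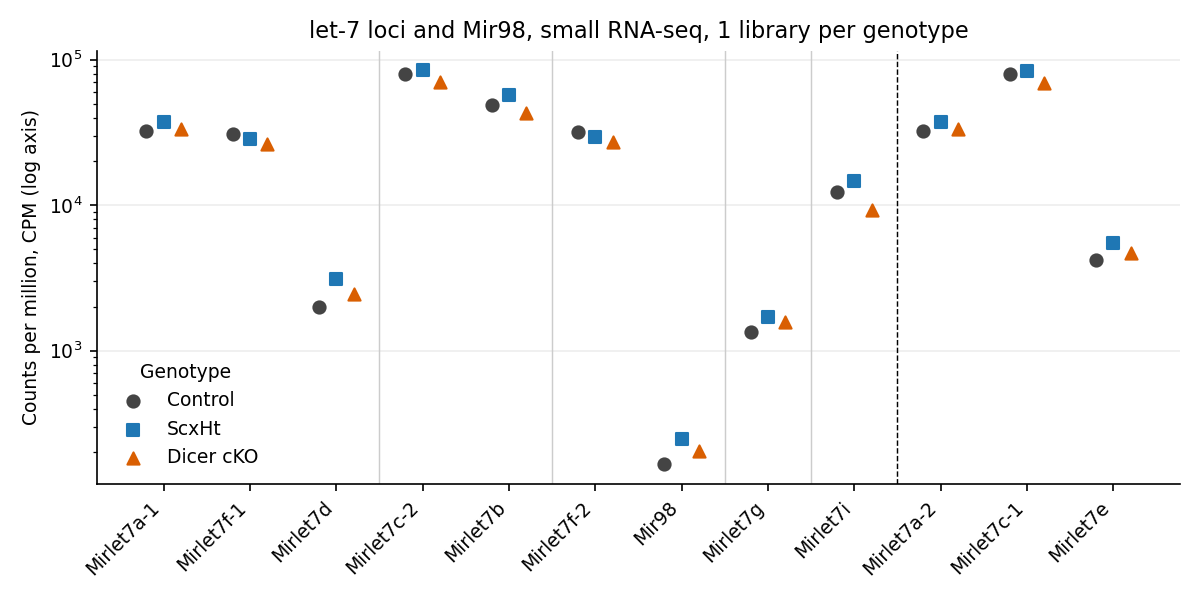
CPM of small RNA-seq counts (log axis) for the 9 loci, grouped by chromosome, and for the 3 cluster loci right of the dashed line, with 1 point for each library. Mirlet7c-2 is the highest of the 9 loci in all 3 libraries and Mir98 the lowest.

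Loci that give the same mature miRNA had nearly the same counts, and how reads that fit more than 1 locus were counted is not given in the sources used here. Mirlet7a-1 exceeded Mirlet7a-2 by 0.172% to 0.244%, and Mirlet7c-2 exceeded Mirlet7c-1 by 1.35% to 1.47%. Mirlet7f-2 exceeded Mirlet7f-1 by 4.22%, 4.20% and 4.11% in the Control, ScxHt and Dicer cKO library. The values of these loci are read here as values of let-7a, let-7c and let-7f, since they do not show how much each locus gave. Mirlet7b, Mirlet7d, Mirlet7g, Mirlet7i and Mir98 are the only loci of their mature miRNA in RefSeq. The counts are per hairpin, and how they split between its arms was not analysed here.

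Summed over the 9 loci, the counts made up 24.0% (23.97% to 24.02%) of the Control library, 25.7% (25.6% to 25.7%) of the ScxHt library and 21.4% (21.38% to 21.43%) of the Dicer cKO library. With each let-7 miRNA counted once, let-7e included, the family's counts equalled 21.3%, 23.4% and 19.3% of the full library totals. Those totals still held every locus, the repeated let-7 loci included. Each miRNA was taken at its highest locus, so reads that fit several loci are assumed to count in full at each. By that count the order let-7c, let-7b, let-7a, let-7f, let-7i, let-7e, let-7d, let-7g and miR-98 was the same in all 3 libraries. Were such reads split between loci instead, let-7a, let-7c and let-7f would hold larger shares and the order could differ. The closest neighbours were let-7a and let-7f in the Control library, at 15.14% (15.10% to 15.19%) and 15.04% (14.99% to 15.09%) of the family's counts, a gap of the size of the counting intervals. In the ScxHt library let-7a held 16.0% and let-7f 12.6%, and in the Dicer cKO library 17.4% and 14.2%. Scaled by hairpin length, as in the RPKM values that the authors deposited, Mirlet7f-2 (83 bases) at 386680 stood above Mirlet7a-1 (94 bases) at 343764 in the Control library, so the order of these neighbours there depends on the length used.

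The make-up of the family is free of any scaling between libraries, but rests on the same way of counting each miRNA once. let-7c held 37.7%, 36.1% and 36.7% of the family's counts in the Control, ScxHt and Dicer cKO library, and let-7b 22.7%, 24.5% and 22.3%. let-7i held 5.81% (5.78% to 5.84%), 6.24% (6.21% to 6.28%) and 4.81% (4.78% to 4.85%), and was the only mature miRNA besides let-7b with its lowest share in the Dicer cKO library. let-7d took 0.932%, 1.33% and 1.27%, let-7g 0.629%, 0.733% and 0.818%, and miR-98 0.0780%, 0.106% and 0.106%. These 3 miRNAs, the least abundant of the family, took their lowest share in the Control library, as did let-7a and let-7e, while let-7c and let-7f took their highest share there.

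**Figure D2:**
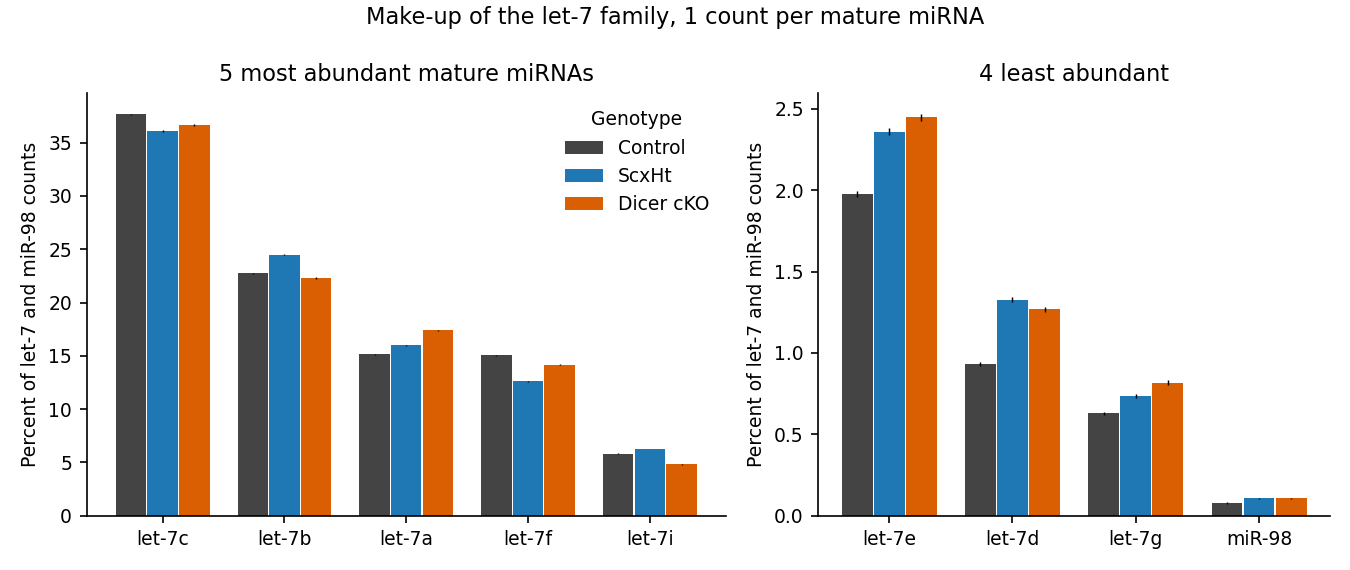
Percent of the let-7 and miR-98 counts of each library held by each mature miRNA, with 1 count per mature miRNA (its highest locus). Bars start at 0, error bars are 95% binomial counting intervals and the panels have different scales. let-7i is at 5.81% for Control and 4.81% for Dicer cKO, and let-7d, let-7g and miR-98 are lowest in the Control library.

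Read ratios between neighbouring loci were not the same in the 3 libraries. Each pair holds a locus whose mature miRNA also comes from another locus, so these are ratios of mature miRNAs and not of hairpins of 1 transcript. Mirlet7a-1 had 1.05 times the reads of Mirlet7f-1 in the Control library (1.04 to 1.05), 1.32 times for ScxHt (1.31 to 1.33) and 1.28 times for Dicer cKO (1.27 to 1.29). Mirlet7a-1 had 16.3, 12.1 and 13.7 times the reads of Mirlet7d. Mirlet7f-2 had 193, 119 and 134 times the reads of Mir98. For each of these pairs the ScxHt and the Dicer cKO library lay closer to each other than to the Control library, and the pairs of Mirlet7f-1 and Mirlet7f-2 are not independent, since both give let-7f. Mirlet7c-2 and Mirlet7b behaved otherwise, with 1.66, 1.47 and 1.64 times the reads, so that here the Control and the Dicer cKO library were close.

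The first comparison asked how the tendon with Dicer deleted in Scx-expressing cells differs from the Control tendon. The Dicer cKO mouse also carried the knock-in allele, which the Control mouse lacked. Counts were divided by DESeq2's size factors of the libraries compared, the mean normalized count of both libraries (baseMean) had to be above 15, and a ratio below 0.60 was called lower and one above the reciprocal of 0.60, rounded to 2 decimals, higher. All 9 loci passed this minimum, and 0 of 9 were past either limit, where 8.38% of the 334 features analysed were above the upper limit and 4.19% below the lower one. The ratio of Mirlet7i was 0.658 (0.652 to 0.664), the nearest to the lower limit, and 8.08% of the features had a lower ratio. Mirlet7f-1 was at 0.749 (0.745 to 0.753), Mirlet7f-2 at 0.748 (0.744 to 0.752), Mirlet7c-2 at 0.773 (0.771 to 0.776) and Mirlet7b at 0.780 (0.776 to 0.783). Mirlet7a-1 was at 0.912 (0.908 to 0.917). Mirlet7d, Mir98 and Mirlet7g lay above 1, at 1.08 (1.06 to 1.10), 1.08 (1.01 to 1.15) and 1.03 (1.01 to 1.06).

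In counting intervals alone, 6 of the 9 loci were below 1 and 3 above 1, where 31.7% of all features were below and 31.1% above. Mirlet7f-1 and Mirlet7f-2 are both among the 6 and both give let-7f. The shares over all features include those with few reads, whose intervals are wider. The median log2 ratio of the 9 loci was -0.36, and -0.25 with each mature miRNA once. The median over all features was -0.02. Over the 60 features with a baseMean above 10000 it was -0.22, and 46 of them were below 1. The abundant loci were thus the lower ones: the 6 loci below 1 were those with the highest counts. The largest ratio among the 9 loci was 1.64 times the lowest. Of the cluster loci, Mirlet7e was at 0.984 (0.971 to 0.997).

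Directions in this comparison depend in part on the scaling. Total counts in place of DESeq2's size factors raised the median of all features by 0.18 on the log2 scale. With them Mirlet7a-1 was at 1.04, while Mirlet7i stayed below 1 at 0.748, Mirlet7f-1 at 0.851, Mirlet7c-2 at 0.879 and Mirlet7b at 0.886. Over 7 scalings, Mirlet7i ranged from 0.658 to 0.795 and Mirlet7f-1 from 0.749 to 0.904, and Mirlet7f-2, Mirlet7c-2 and Mirlet7b also stayed below 1, with Mirlet7d, Mir98 and Mirlet7g above 1. Mirlet7a-1 was below 1 under 5 of the scalings and above 1 under the other 2, total counts and total counts without the muscle and erythroid miRNAs. Set against Mirlet7a-1, which removes the scaling, Mirlet7i was at 0.721, Mirlet7f-2 at 0.820, Mirlet7c-2 at 0.848, Mirlet7b at 0.855, Mirlet7g at 1.13, and Mir98 and Mirlet7d at 1.18 each.

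The second comparison, ScxHt against Control, shows how the knock-in allele with intact Dicer stands beside the Control tendon. Again 0 of 9 loci were past a limit, where 3.01% of the 332 features were above and 6.93% below. Mirlet7d was highest at 1.35 (1.33 to 1.37), followed by Mir98 at 1.29 (1.21 to 1.38) and Mirlet7g at 1.10 (1.08 to 1.13). Mirlet7f-1 and Mirlet7f-2, which both give let-7f, were lowest at 0.796 (0.792 to 0.800) each. Mirlet7c-2 had 0.908 (0.906 to 0.911), and Mirlet7b at 1.02, Mirlet7i at 1.02 and Mirlet7a-1 at 1.001 were near 1. By counting intervals, 3 loci were below 1, 5 above 1 and 1 (Mirlet7a-1) across it, with 32.8% of all features below and 24.4% above. The median log2 ratio was 0.03 for the 9 loci and -0.02 for all features. Over the 60 features with a baseMean above 10000 it was -0.14, and 43 of them were below 1. Under total counts, which raised the median of all features by 0.21, Mirlet7c-2 moved to 1.05, while Mirlet7f-1 and Mirlet7f-2 stayed below 1 and the other 6 loci at or above 1 under all 7 scalings.

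The third comparison, Dicer cKO against ScxHt, sets apart 2 mice that both carry the knock-in allele and differ in the Dicer alleles. All 9 loci had ratios and counting intervals below 1, where 33.9% of the 322 features had intervals below 1 and 25.8% above. These shares include features with few reads, whose intervals are wider. None of the 9 was past a limit, with 2.17% of the features below the lower and 11.2% above the upper one. Mirlet7i was lowest at 0.635 (0.629 to 0.641), and 3.42% of the features had a lower ratio. Mirlet7b was at 0.750 (0.747 to 0.754), Mirlet7d at 0.787 (0.773 to 0.802), Mir98 at 0.818 (0.767 to 0.873) and Mirlet7c-2 at 0.837 (0.834 to 0.840). Mirlet7a-1 at 0.896, Mirlet7g at 0.920, Mirlet7f-2 at 0.924 and Mirlet7f-1 at 0.925 were closest to 1. The median log2 ratio was -0.26, against -0.01 over all features. Over the 55 features with a baseMean above 10000, the abundant let-7 loci included, it was -0.11, and 39 of them were below 1. Without the muscle and erythroid miRNAs in the library totals, Mirlet7f-1 moved to 1.004, Mirlet7f-2 to 1.003 and Mirlet7i to 0.689.

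**Figure D3:**
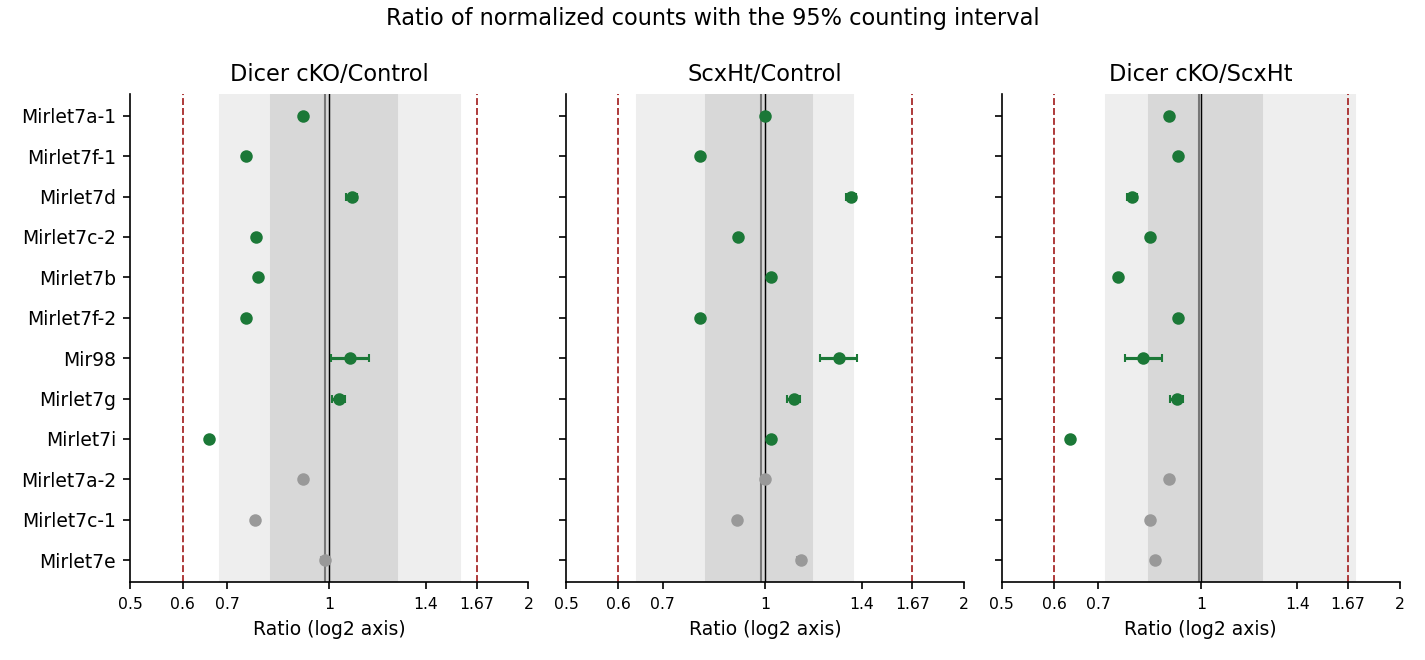
Ratio of normalized counts (log2 axis) of the 9 loci (green) and the 3 cluster loci (grey) in the 3 comparisons, with 95% counting intervals. The light band holds the middle 80% of all features analysed and the dark band the middle 50%, the grey line is their median and the dashed red lines mark the limits of a call. Mirlet7i at 0.658 and 0.635 is left of the light band in both Dicer cKO comparisons, and no locus crosses a red line.

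The 3 comparisons share their libraries, so their values are set side by side and do not stand for each other. In the order of the comparisons above, Mirlet7i had 0.658, 1.02 and 0.635. Mirlet7b showed the same order with 0.780, 1.02 and 0.750. Mirlet7f-1 had 0.749, 0.796 and 0.925, so that its lower value was found in both libraries with the knock-in allele. Mirlet7d had 1.08, 1.35 and 0.787, and Mir98 1.08, 1.29 and 0.818.

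**Figure D4:**
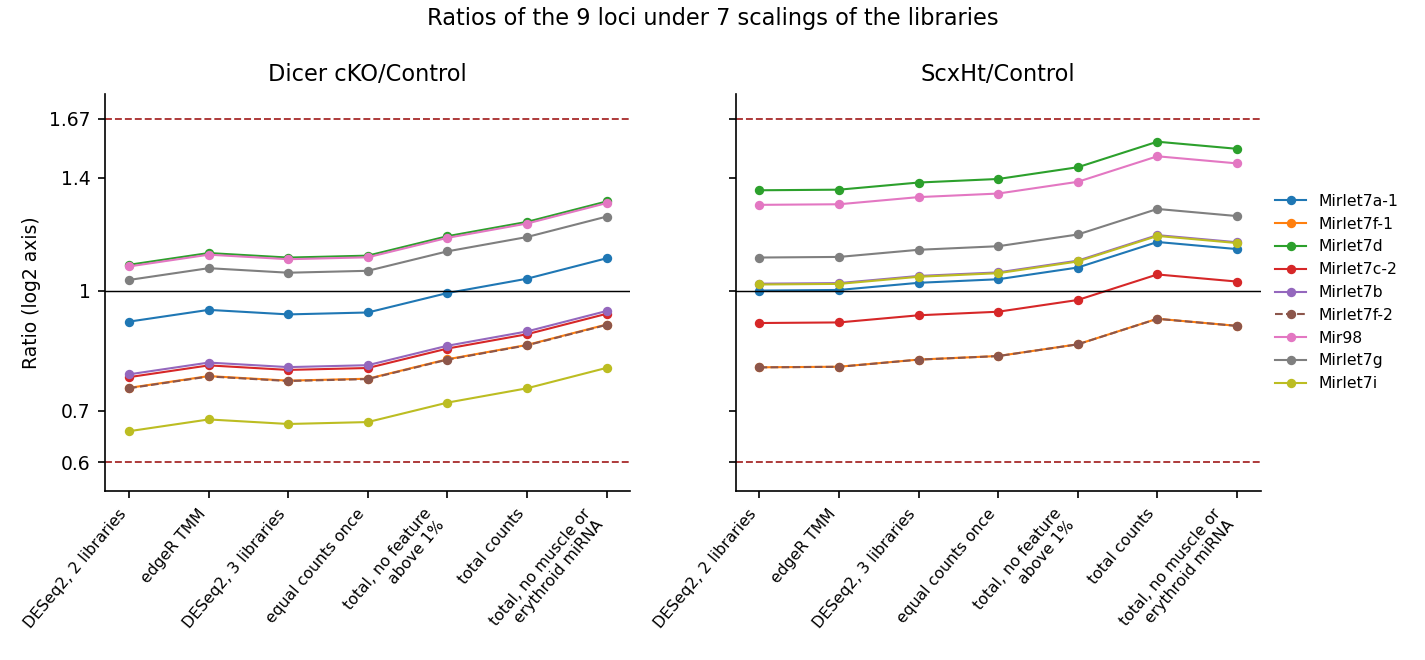
Ratio (log2 axis) of each of the 9 loci under 7 ways to scale the libraries, for Dicer cKO/Control and ScxHt/Control, with the dashed lines of Mirlet7f-2 over those of Mirlet7f-1 and red lines at the limits of a call. Each scaling shifts all loci of a comparison by the same factor, so the lines run in parallel by design. Mirlet7a-1 crosses 1 in the left panel and Mirlet7c-2 in the right one.

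The genes that hold these hairpins were compared in the RNA-seq libraries. Huwe1, around Mirlet7f-2 and Mir98, had 11398, 11408 and 10733 reads and its ratio to the Control was 0.978 (0.952 to 1.004) in the Dicer cKO and 0.959 (0.934 to 0.984) in the ScxHt library. These lay between the Mirlet7f-2 and Mir98 ratios, while the Dicer cKO/ScxHt ratio of Huwe1, 1.04 (1.01 to 1.06), lay above those of both. Wdr82, around Mirlet7g, had 741, 900 and 709 reads, with 0.994 (0.895 to 1.10) and 1.16 (1.05 to 1.28), beside 1.03 and 1.10 for Mirlet7g. 6720427I07Rik, Lncppara and D630033A02Rik were not found under these names and were not analysed here. The hairpins themselves had few reads in RNA-seq, 77, 100 and 65 over all 9 loci, of which Mirlet7f-1 held 40, 45 and 35.

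Among the features outside the let-7 family with at least 100 normalized counts, 207 in all, the 5 whose log2 ratios were nearest to those of the summed 9 loci were Mir425, Mir26a-2, Mir26a-1, Mir142 and Mir143. The summed loci had a ScxHt/Control log2 ratio of -0.079 and a Dicer cKO/Control log2 ratio of -0.32. Mir425 had -0.07 and -0.34, at a distance of 0.0242 on the log2 scale. Mir26a-2 and Mir26a-1, which give the same mature miRNA, had -0.09 and -0.35 each. Likeness rests on 3 libraries only.

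The factors that make, degrade or use let-7 were read from a list of 19 genes, among them Dicer1, the gene deleted in the Dicer cKO mouse. Lin28a had 1, 0 and 3 RNA-seq reads and Lin28b 0, 0 and 0, at or under a floor of 3 reads, so that neither was detectable as different between the libraries. The other 17 genes passed the RNA-seq minimum, a baseMean above 50. For Dicer cKO/Control 0 of the 17 were past the limits used above, where 3.87% of the 13404 genes analysed were above and 4.19% below, and the median log2 ratio was 0.11 against -0.03 for all genes. Ago1, an Argonaute, was lowest with 833, 771 and 522 reads and a ratio of 0.651 (0.582 to 0.727). Xpo5, the exportin of the hairpins, had 607, 641 and 462 reads and a ratio of 0.790 (0.699 to 0.893). Zcchc11, which adds uridines to let-7 hairpins bound by Lin28a, had 1172, 1222 and 1360 reads and a ratio of 1.20 (1.11 to 1.30). Prkra, a partner protein of Dicer, had 90, 161 and 120 reads and was the single gene called for ScxHt/Control, at 1.71 (1.32 to 2.24). That comparison had 3.03% of 13462 genes above the upper limit and 4.71% below the lower one. Drosha at 1.02, Dgcr8 at 1.14 and Ago2 at 0.899 for Dicer cKO/Control were within these limits.

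A list of 41 genes described as let-7 targets was read in the same way. It holds both early developmental targets and genes of growth, cell cycle and matrix. Of the 41 genes, 25 had an 8mer site for let-7 (CTACCTCA, the complement of the seed followed by A, read on the sense strand) in their longest annotated 3' UTR, and 32 an 8mer or a 7mer-m8 (CTACCTC). Among all 21153 genes with an annotated 3' UTR, 3.54% held the 8mer. A match to these letters is a description of the sequence and does not show that let-7 binds there.

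The first site in the 3' UTR of 5 genes described below is shown with its surroundings, with the match in capitals. All were read from the GENCODE vM21 transcripts on GRCm38, sense strand.
Hmga2 (chr10:120364224-120364231, minus strand): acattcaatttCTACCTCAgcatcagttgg
Col1a2 (chr6:4541077-4541084, plus strand): aaaggtttgaaCTACCTCAagacactttgc
Col3a1 (chr1:45349150-45349157, plus strand): ccctatgttaaCTACCTCAactggtcagaa
E2f6 (chr12:16826418-16826425, plus strand): cctagcgctctCTACCTCAgtggatttgga
Gatm (chr2:122595201-122595207, minus strand): tatttaaccatCTACCTCtgtttttaatt

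For Dicer cKO/Control, 32 of the 41 genes passed the minimum, 1 was above the upper limit and 2 were below the lower one, where 3.87% and 4.19% of all genes were. Gatm, an enzyme of creatine synthesis, had 61, 67 and 110 reads and a ratio of 1.87 (1.36 to 2.60). Col1a2, a chain of type I collagen, had 708695, 658387 and 391822 reads and a ratio of 0.574 (0.572 to 0.576). Myc, a growth regulator with no 8mer or 7mer-m8 in this UTR, had 83, 41 and 46 reads and a ratio of 0.575 (0.392 to 0.835). These counts are near the shares over all genes, and with total counts as the scaling 0 genes of the list were below 0.60.

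By counting intervals, 5 of the 32 genes were above 1 and 15 below, where 21.6% of all genes were above and 28.5% below. Dicer1, the gene deleted in the Dicer cKO mouse, is in this list and among the 15, at 0.877 (0.821 to 0.938). E2f6, a repressor of the E2F group, had 566, 529 and 861 reads and a ratio of 1.58 (1.42 to 1.76). Insr, the insulin receptor, was at 1.12 (1.06 to 1.19) and Cdc34, a ubiquitin-conjugating enzyme, at 1.24 (1.05 to 1.47). Among the genes below 1, Col3a1 was at 0.632 (0.624 to 0.641), Thbs1 at 0.748 (0.734 to 0.763), the receptor Tgfbr1 at 0.781 (0.731 to 0.834), Ccnd2 at 0.785 (0.755 to 0.816) and Igf1r at 0.788 (0.732 to 0.848). The list had a median log2 ratio of -0.18, against -0.03 over all genes. It holds the tendon matrix genes Col1a2, Col3a1 and Thbs1. The tendon marker list, most of it Col1a1, was at 4.96% of the Dicer cKO counts against 8.80% in the Control. The part of cell make-up in these values was not tested.

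The targets best known from early development had few or no reads. Hmga2 had 8, 7 and 10 reads in the Control, ScxHt and Dicer cKO library. Igf2bp1 had 0, 1 and 0 reads and Trim71 1, 0 and 0 reads, and with Lin28a and Lin28b these 4 genes were at or under 3 reads in all libraries. Igf2bp2, the relative of Igf2bp1 that was expressed, had 188, 204 and 219 reads and a ratio of 1.21 (0.991 to 1.48). The signalling genes Hras at 1.07 (0.939 to 1.22) and Nras at 0.934 (0.833 to 1.05) had intervals across 1.

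For ScxHt/Control, Arid3b was the gene above the upper limit, with 107, 207 and 141 reads and a ratio of 1.85 (1.46 to 2.36), and Myc the gene below 0.60, at 0.473 (0.317 to 0.696), 1 of 32 genes each beside 3.03% and 4.71% of all genes. By counting intervals 7 of the list's genes were above 1 and 8 below, where 26.4% and 23.8% of all genes were, and the list's median log2 ratio was -0.01, against 0.02 over all genes. For Dicer cKO/ScxHt, 30 genes passed the minimum, with Gatm at 1.81 and E2f6 at 1.79 above the upper limit and Col3a1 at 0.469 and E2f5 at 0.555 below 0.60, where 7.68% and 5.68% of the 13455 genes were past these limits. Here 6 genes had intervals above 1 and 13, Dicer1 among them, below, beside 24.9% and 30.6% of all genes. The list's median was -0.18, against -0.03 for all genes.

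**Figure D5:**
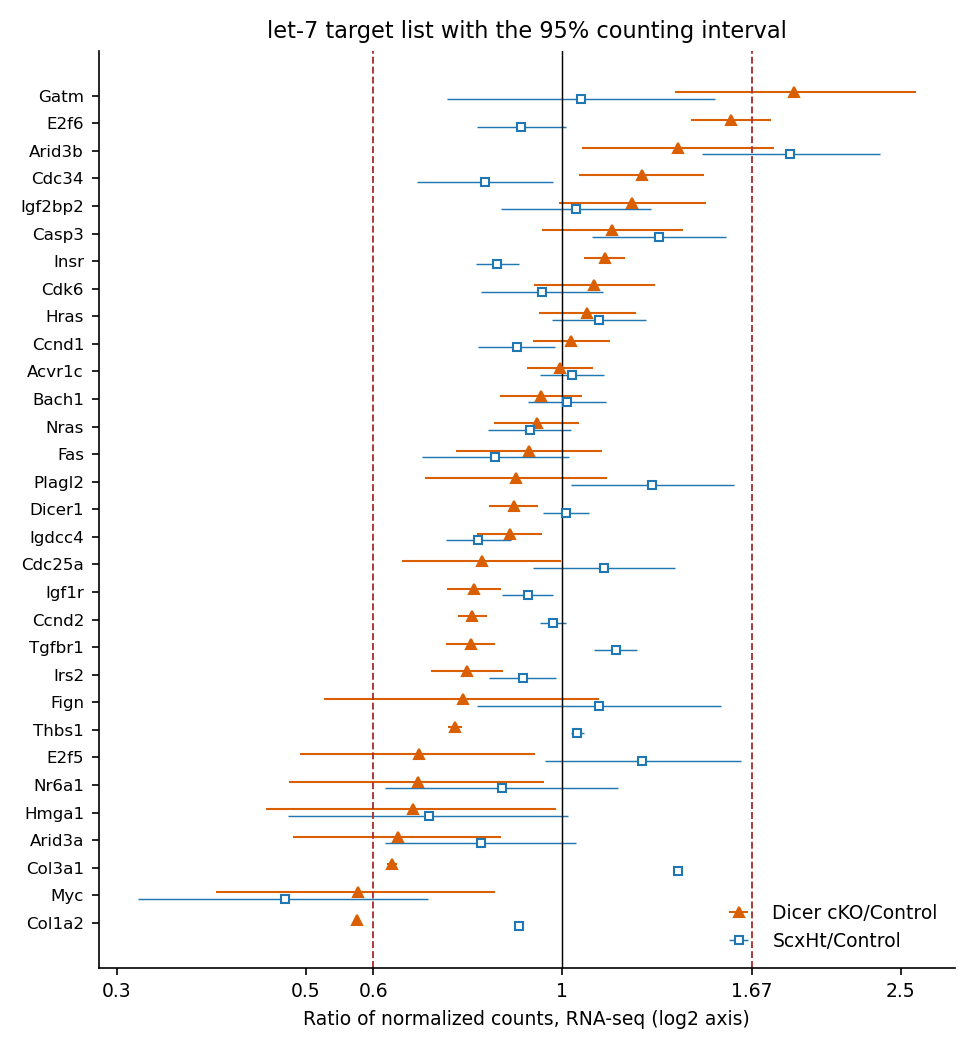
RNA-seq ratios (log2 axis) of 31 of the 32 genes of the let-7 target list with a baseMean above 50 for Dicer cKO/Control (triangles) and ScxHt/Control (open squares), with 95% counting intervals and dashed red lines at the limits of a call. Gatm at 1.87 is the highest triangle and Col1a2 at 0.574 the lowest, and the triangles of Col3a1 and E2f6 lie on the other side of 1 from their squares.

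Over the whole transcriptome, genes with the let-7 8mer were set beside all genes with an annotated 3' UTR. For Dicer cKO/Control, 488 of the 10961 genes analysed with an annotated 3' UTR (4.45%) had an 8mer, and their median log2 ratio was -0.06, against -0.04 over all 10961. Of the 488 genes, 2.87% were above the upper limit and 3.48% below the lower one, beside 3.79% and 3.76% of the 10961. The medians were -0.01 and 0.02 in the ScxHt/Control comparison, and -0.05 and -0.04 in the Dicer cKO/ScxHt comparison. In the 23 genes with 2 or more 8mers, the Dicer cKO/Control median was -0.08, and 2 were above the upper limit and 0 below the lower one.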

How the data were processed

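Achilles tendon RNA of 1 mouse per genotype was sequenced by RNA-seq and small RNA-seq, 6 libraries in all. Trimmed reads were mapped by the authors with TopHat and Bowtie2 to GRCm38, and the raw read counts per gene from HTSeq were deposited. RPKM values were deposited by the authors too, and only those of small RNA-seq were used, for hairpin length and 1 comparison of neighbours. Tool versions, strand setting and treatment of reads that fit several loci are not given in the sources used here. Exactly repeated lines (463 in RNA-seq, 3 in small RNA-seq) were dropped, after which RNA-seq counts summed to 14936241 to 16218733 per library.

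Ratios used size factors of DESeq2 1.42.0 (R 4.3.3) from the libraries compared, with no pseudocount, and intervals came from Python 3.11.15 with scipy 1.17.1 and figures from matplotlib 3.10.9. baseMean limits were 15 and 50. The fold limits follow the study's methods. The procedure was tested on simulated counts with known changes and counting error only, which does not cover spread between mice.

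The members and lists were chosen with earlier results of these data known. Named genes are the 9 loci, the cluster loci, miRNAs with the same seed, host genes, list members, Dicer1 and the 5 most similar features. Alternatives were edgeR 4.0.16 TMM, total counts (all, without features above 1%, or without muscle and erythroid miRNAs), DESeq2 over 3 libraries, features of equal counts entered once, each mature miRNA once, a pseudocount of 1, folds of 2 and 0.5, the whole interval past the fold, and other minimum baseMeans. The single value of 1 list gene is not reported here.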

Additional observations from a re-analysis of the deposited data

How the results depend on the processing

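The count of 0 of 9 loci past the thresholds held in all 3 comparisons under every alternative run. Only the scalings could have raised this count. The stricter folds and intervals, the other minimum baseMeans and the pseudocount of 1 could add no locus. The members' median log2 ratio for Dicer cKO/Control stayed below 0, at -0.31 with edgeR's TMM, -0.17 with total counts, -0.33 with DESeq2 over 3 libraries, -0.24 without features above 1%, -0.087 without the muscle and erythroid miRNAs, -0.32 with equal features entered once and -0.25 with each mature miRNA once. For ScxHt/Control it stayed above 0, at 0.24 with total counts, 0.060 with DESeq2 over 3 libraries, 0.13 without features above 1%, 0.21 without the muscle and erythroid miRNAs and 0.076 with equal features once. For Dicer cKO/ScxHt it was -0.24, -0.23, -0.21, -0.14 and -0.27 with TMM, DESeq2 over 3 libraries, without features above 1%, without muscle and erythroid miRNAs and with each mature miRNA once. The 9 loci held 25.7%, 26.9% and 24.3% of the Control, ScxHt and Dicer cKO counts without the muscle and erythroid miRNAs, and 24.2%, 25.9% and 21.6% of those of Mir genes. In the let-7 target list for Dicer cKO/Control, a minimum baseMean of 10 gave 2 genes above the upper limit and 3 below the lower, one of 200 gave 0 above and 1 below the lower, and total counts gave 0 below. With a minimum of 200, ScxHt/Control had 0 target genes above and 0 below and 0 biogenesis genes above, and Dicer cKO/ScxHt had 1 above, 1 below and a median of -0.077. In all, 162 recomputed values of these results stayed within the counting interval of the main value or near its count. They include the counts of 0 loci given first. Many of them were counts of loci or genes past the limits. Of the recomputed ratios and shares of single loci, 149 moved and 67 did not. No paired analysis was possible because each genotype had 1 library. Leaving out a library would leave a comparison without 1 of its groups. Depth does not limit the abundant loci, and Mir98 has the widest counting intervals.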
